A study of Rattus norvegicus with 12 samples.

Results

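The globin and erythroid genes described here are 8 of the 3939 named genes on the arrays: Hba-a1, Hbb, Hbb-b1, Alas2, Slc4a1, Add2, Car2 and Gata1. They were picked by gene symbol with their log2 ratios at 2 h and 6 h after lipopolysaccharide (LPS) already known, so those ratios are given as a description without a test. Each gene had 1 probe. LPS, a bacterial cell wall component, had been given to rats, and total RNA of each rat was hybridised on 2-colour arrays against a control pool of the same time. There were 3 rats at 2 h (rats 1, 2 and 3) and 3 at 6 h (rats 2, 4 and 6), each on 2 arrays, fluor (control pool in channel 1) and flip (channels exchanged). Only the series title says that the samples were blood. For strain, age, sex, LPS dose, treatment of the pooled controls and number of animals in a pool, the sources used here give nothing. A ratio carries no level, so the tissue could not be checked against its markers, and no level of 1 gene can be set against another's.

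Red cells carry oxygen on haemoglobin, a tetramer of alpha and beta globin chains around heme. Heme is made in the developing red cell from a first step catalysed by Alas2, and the transcription factors Gata1 and Klf1 switch on globin, heme and membrane genes together. Mature mammalian red cells have no nucleus and make no new RNA, whereas reticulocytes, the youngest red cells in blood, still hold globin mRNA, and leukocytes add the rest of the RNA of whole blood. In bulk blood RNA, fewer cells of a type and less RNA per cell cannot be told apart.

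Upstream sequences are shown for the 3 globin genes because only these had a window with enough bases outside the gene's annotated span. With none of the other 5 genes to set beside them, they were not compared with the ratios. Windows before the transcription start were matched by gene identifier for 6 of the 8 genes, in RefSeq's annotation of GRCr8. Those of 3 genes (Alas2, Add2 and Gata1) lay within the annotated span of the gene and are not printed. Capitals mark 4 short motifs. The first is the GATA site of the factor family of Gata1, searched on either strand as AGATAA and its close form TGATAA. The same search also took the form AGATAG and, as the last of these forms, TGATAG. The CACCC box, bound by factors such as Klf1, and the general promoter element CCAAT were also searched on either strand. The TATA box, searched as TATAAA, was taken on the strand shown only. No 2 of these matches overlap.
Hba-a1, chr10:15842581-15842830, minus strand: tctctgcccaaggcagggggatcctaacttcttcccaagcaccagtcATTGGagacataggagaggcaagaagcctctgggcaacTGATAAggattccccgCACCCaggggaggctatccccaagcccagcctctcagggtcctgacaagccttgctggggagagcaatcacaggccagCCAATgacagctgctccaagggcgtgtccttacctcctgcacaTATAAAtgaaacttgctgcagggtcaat
Hbb, chr1:167663722-167663971, minus strand: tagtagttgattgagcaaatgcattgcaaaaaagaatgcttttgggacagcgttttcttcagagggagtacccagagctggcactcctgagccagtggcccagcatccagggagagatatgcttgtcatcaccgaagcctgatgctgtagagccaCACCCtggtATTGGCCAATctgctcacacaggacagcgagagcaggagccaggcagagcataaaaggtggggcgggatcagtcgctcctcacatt
Hbb-b1, chr1:167643578-167643770, minus strand: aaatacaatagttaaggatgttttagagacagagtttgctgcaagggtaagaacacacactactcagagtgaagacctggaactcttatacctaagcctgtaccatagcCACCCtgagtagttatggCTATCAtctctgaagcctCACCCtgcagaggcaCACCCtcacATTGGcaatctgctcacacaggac
Hba-a1 had 1 GATA site, 1 CACCC, 2 CCAAT and 1 TATAAA in 250 bases. Hbb, in 250 bases, had 1 CACCC and 2 CCAAT, which sit next to each other on opposite strands. Hbb-b1 had 1 GATA site, 3 CACCC and 1 CCAAT in the 193 bases outside its annotated span. The bases of its window nearest the start lay within that span and were not searched, so a TATAAA there would be missed. Of 33469 RefSeq windows, 27.0% held a GATA site, 49.2% CACCC, 34.0% CCAAT and 8.06% TATAAA in their first 250 bases. In their first 193 bases the shares were 22.7%, 40.5%, 27.9% and 5.61%. Such a match is a description of letters and no binding site.

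Values above 0 were taken to mean more RNA after LPS. The direction is likely and not settled, since no dyes were stated. Its basis, chosen after the data were seen, is 4 genes known to be induced by LPS: Il1b, Il1r2, Irf1 and Zfp36. They exceeded 0 on each of the 12 arrays in either orientation. Multiplying the flip arrays by -1, an alternative used below, puts them below 0 on every flip array. A mean under it reflects only the gap between a rat's fluor and flip arrays. Over all probes, the correlation between both arrays of 1 rat ran from -0.23 to 0.25. Array medians lay between -0.020 and 0.0083. The values of both arrays were averaged per rat (n = 3 per time), errors are standard deviations (SD) over rats, and the control pool's own spread is not in them. The labels do not say whether the rats numbered 2 at both times are 1 animal. In all sentences below, values are log2 ratios to the control pool. Each time had its own control pool, so a difference between the times cannot be told apart from a difference between the pools.

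Of the 3 globin genes, Hba-a1 and Hbb had means below 0 at both times, and Hbb-b1 had a mean near 0 at 2 h and below 0 at 6 h. Hba-a1, an alpha globin, had rat means of -0.11, -0.12 and -0.17 at 2 h (rats 1, 2 and 3) and of -0.10, -0.16 and -0.11 at 6 h (rats 2, 4 and 6). Its mean was -0.14 ± 0.03 at 2 h and -0.12 ± 0.03 at 6 h, a level of 0.910 and 0.917 times the pool, and the rats of the times overlapped. All 6 rats were below 0, yet on the fluor arrays alone Hba-a1 averaged -0.35 at 2 h and -0.26 at 6 h, and on the flip arrays alone 0.077 and 0.010.

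Hbb, a beta globin, was the globin with the same sign on every array, 12 of 12 below 0. Its rat means were -0.16, -0.12 and -0.08 at 2 h and -0.27, -0.16 and -0.045 at 6 h. The group means were -0.12 ± 0.04 and -0.16 ± 0.11. The rats of the times overlapped, and the fluor and flip arrays differed little, by -0.033 at 2 h and -0.048 at 6 h (fluor minus flip).

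Hbb-b1, a second beta-type globin gene on the same chromosome, differed between the times. The rats stood at 0.059, 0.070 and -0.059 at 2 h and -0.25, -0.37 and -0.37 at 6 h. The mean went from 0.023 ± 0.071 to -0.33 ± 0.07, a difference of -0.35 (SE 0.06), and all 3 rats of 2 h lay above all 3 of 6 h. Rats of 2 h lay wholly above those of 6 h for 10.1% of all 3939 genes. Within either orientation the order of the times was the same: fluor arrays went from -0.13 to -0.47 and flip arrays from 0.17 to -0.19. The globins share much of their sequence, and the probes were not matched to a genome here, so how far each probe tells Hbb from Hbb-b1 was not tested. The 2 probes annotated to both Hbg1 and Igf1 were not named.

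**Figure D1:**
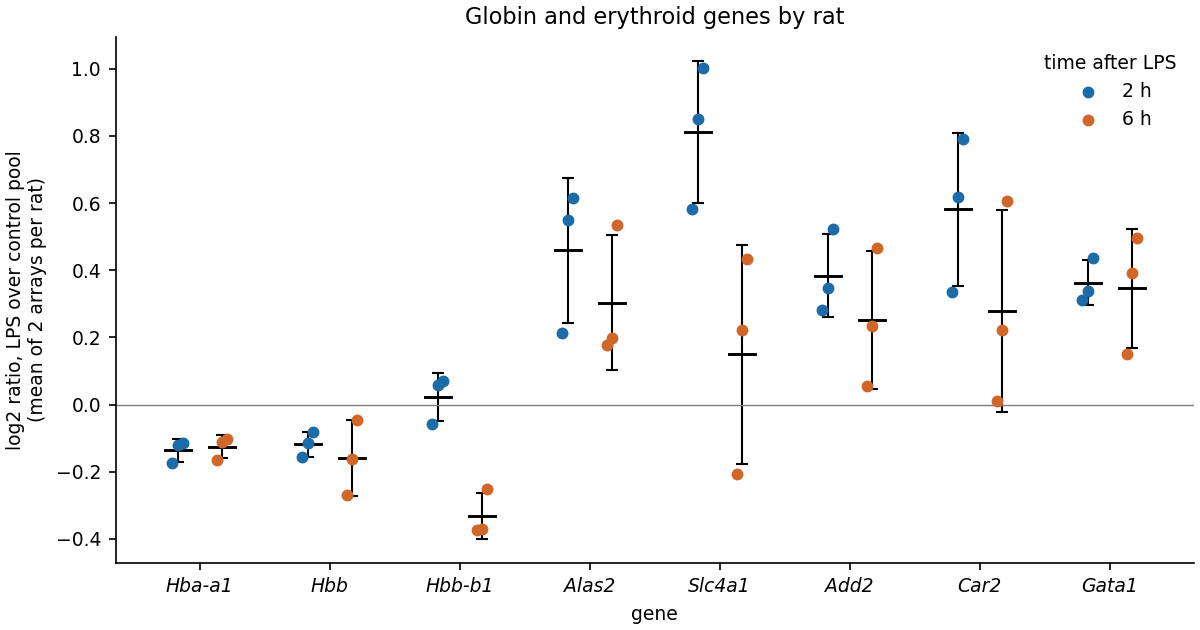
Log2 ratio of LPS over control pool (vertical axis) for the 8 genes (horizontal axis). Each point is 1 rat (mean of its 2 arrays), blue at 2 h and orange at 6 h, with the mean as a bar and the SD as whiskers (n = 3). All rats lie below 0 for Hba-a1 and Hbb, and above it for the 5 non-globin genes except 6 h rat 6 in Slc4a1 at -0.21. Hbb-b1 has 2 rats of 2 h above 0, at 0.059 and 0.070. In Hbb-b1 and Slc4a1 all rats of 2 h lie above those of 6 h, as in 10.1% of all 3939 genes.

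Alas2, the erythroid 5-aminolevulinate synthase that starts heme synthesis, stood above 0 in all 6 rats. Its rat means were 0.21, 0.62 and 0.55 at 2 h and 0.18, 0.54 and 0.20 at 6 h, with means of 0.46 ± 0.22 and 0.30 ± 0.20, or 1.38 and 1.23 times the pool. The times overlapped, with 2 h rat 1 low and 6 h rat 4 high. The flip arrays alone gave 0.28 at 2 h and -0.015 at 6 h, against 0.64 and 0.62 on the fluor arrays.

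Of 4 other heme synthesis genes measured, 1 rose at 2 h and none at 6 h, against 9.34% and 8.30% of all 3939 genes. The gene that rose was Alas1, the synthase of the same step in all other tissues, at 0.45 ± 0.21 at 2 h (limma adjusted p = 0.0153) and 0.25 ± 0.16 at 6 h (adjusted p = 0.0853). Its rat means, 0.25, 0.67 and 0.42 at 2 h, were ordered like those of Alas2 in its lowest and highest rat. The call at 2 h ended without 2 h rat 2 (adjusted p = 0.0693), without 2 h rat 3 (0.0520) and on the flip arrays alone (0.24, adjusted p = 0.119), and 5 of 16 alternatives made the call at 6 h. Alad, the next enzyme of the pathway, stood at 0.064 ± 0.117 at 2 h, and Uros at -0.048 ± 0.123. The list's median of 4 genes was 0.05 at 2 h, where that of all genes was -0.0070.

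Slc4a1, the band 3 anion exchanger of the red cell membrane, had the highest mean of the 8 genes at 2 h as deposited, and the second highest, after Car2, with the flip arrays multiplied by -1. Its rat means were 0.58, 0.85 and 1.00 at 2 h and 0.22, 0.43 and -0.21 at 6 h. The mean was 0.81 ± 0.21 at 2 h, 1.76 times the pool and in place 18 of 3939 genes (place 64 with the flip arrays multiplied by -1), and 0.15 ± 0.33 at 6 h. The difference of -0.66 (SE 0.17) came with no overlap of the rats, the lowest at 2 h being above the highest at 6 h. That order of the rats held for 10.1% of all 3939 genes. On the fluor arrays Slc4a1 went from 1.03 to 0.43 and on the flip arrays from 0.59 to -0.13. Its 6 h mean was 0.33 without 6 h rat 6 and 0.0085 without 6 h rat 4.

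Add2, beta adducin, caps actin filaments in the membrane skeleton. Its rat means were 0.28, 0.52 and 0.35 at 2 h and 0.23, 0.47 and 0.054 at 6 h, with means of 0.38 ± 0.12 and 0.25 ± 0.21. All 6 rats were above 0 and the times overlapped. Its arrays of opposite orientation were nearly alike, at 0.39 and 0.37 at 2 h and at 0.29 and 0.21 at 6 h, the smallest gap of the 5 genes above 0.

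Of 15 other membrane and skeleton genes, 4 rose and 1 fell at 2 h, and 2 rose and 2 fell at 6 h. Shares over all 3939 genes were 9.34% up and 9.82% down at 2 h, and 8.30% up and 10.7% down at 6 h. No count of a single list is read as a result. Aqp1, the water channel that is abundant in red cells, fell at both times, by 0.49 ± 0.13 at 2 h (limma adjusted p = 0.0024) and by 0.30 ± 0.12 at 6 h (adjusted p = 0.0156). It lay below 0 on all 12 arrays, opposite to Slc4a1 and Add2. Rhd, a Rhesus blood group protein, rose at 2 h (0.32 ± 0.14, adjusted p = 0.0484), as did Stom, or stomatin (0.31 ± 0.14, adjusted p = 0.0145), and Tpm3, a tropomyosin (0.29 ± 0.14, adjusted p = 0.0224). At 6 h Tpm3 rose again (0.27 ± 0.12, adjusted p = 0.0263), whereas Rhd stood at 0.29 ± 0.24 (adjusted p = 0.0602) and Stom at 0.14 ± 0.09. Outside the naming rule and picked after their values were seen, Dmtn (dematin, 0.17 ± 0.08 at 2 h and 0.15 ± 0.08 at 6 h, adjusted p = 0.0325 and 0.0470) rose and Sptan1 fell at 6 h (-0.25 ± 0.09, adjusted p = 0.00555).

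Aqp1 at 2 h and Sptan1 at 6 h passed whichever rat was left out, but with the flip arrays multiplied by -1 they stood at -0.0026 and -0.080 and did not pass (adjusted p = 0.968 and 0.219). On the flip arrays alone the calls of Sptan1 (0.0992), of Rhd (0.0731), Stom (0.167), Tpm3 (0.0750) and Dmtn (0.262) at 2 h, and of Tpm3 (0.160) at 6 h ended, and Dmtn at 6 h stood at -0.054. Without 2 h rat 2 the calls at 2 h of Rhd, Stom, Tpm3 and Dmtn ended (adjusted p = 0.209, 0.0510, 0.119 and 0.150), and without 2 h rat 1 those of Rhd, Tpm3 and Dmtn (0.158, 0.0824 and 0.0797). Rhd and Dmtn also missed without 2 h rat 3 (0.0545 and 0.0550) and without 6 h rat 2 (0.0629 and 0.0583), and Rhd without 6 h rat 4 (0.0561). The call of Rhd ended too with single probes (0.0741) and with the flip arrays multiplied by -1 (0.010, limma adjusted p = 0.816). That of Dmtn at 2 h ended with each time fitted alone (0.0612). At 6 h Aqp1 missed without 6 h rat 2 (0.106) or rat 4 (0.0783), and Tpm3 without 6 h rat 4 (0.130) or rat 6 (0.101). Dmtn at 6 h missed with any 1 rat left out except 2 h rat 2 (adjusted p of 0.0544 to 0.210). It also missed at 6 h with single probes (0.0626), with each time fitted alone (0.0514) and with neighbouring probes subtracted (0.0514). Rhag (0.18 ± 0.15) and Kel (-0.062 ± 0.226), further blood group proteins, did not pass at 2 h.

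Car2, the carbonic anhydrase that hydrates carbon dioxide inside the red cell, ranked second of the 8 at 2 h. By rat it stood at 0.62, 0.79 and 0.34 at 2 h (rats 1, 2 and 3) and at 0.22, 0.61 and 0.011 at 6 h (rats 2, 4 and 6). The mean was 0.58 ± 0.23 at 2 h and 0.28 ± 0.30 at 6 h, and the rats of the times overlapped. Car2 had the widest gap between orientations, 0.86 on the fluor and 0.30 on the flip arrays at 2 h, and 0.63 and -0.070 at 6 h.

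Among 3 other carbonic anhydrases, Car4, an enzyme anchored outside the cell membrane, passed at both times, with a call at 2 h that many alternatives ended. It stood at 0.17 ± 0.08 at 2 h (limma adjusted p = 0.0278) and 0.66 ± 0.05 at 6 h (adjusted p = 0.000132), with rat means of 0.61, 0.69 and 0.69 at 6 h. It was also the single gene of 55 in the erythroid lists whose difference between the times passed the threshold, at 0.49 (SE 0.06, limma adjusted p = 0.0244). All rats of 6 h lay above those of 2 h, as for 11.6% of all 3939 genes. The difference missed the threshold without 2 h rat 1 (0.0779) or any 6 h rat (0.0669 to 0.0993), and on the fluor (0.203) or flip arrays alone (0.176). The call at 2 h missed it without 2 h rat 2 (0.122) or rat 3 (0.0772). The call at 2 h also ended with orientation as a term and rats as random blocks (0.120), with each time fitted alone (0.0699) and with neighbouring probes subtracted (0.0595), and on the flip arrays alone the mean was -0.014. Multiplying the flip arrays by -1 ended the call at 6 h (0.17, adjusted p = 0.151).

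Of 8 red cell enzymes and antioxidants, 2 rose at 2 h and none at 6 h, against 9.34% and 8.30% of all 3939 genes. Gpx1, the glutathione peroxidase of red cells and leukocytes, rose at 2 h by 0.46 ± 0.22 (limma adjusted p = 0.00833) and stood at 0.099 ± 0.071 at 6 h. Nt5c3a, which clears pyrimidine nucleotides when reticulocytes break down their RNA, rose at 2 h by 0.22 ± 0.12 (adjusted p = 0.0325). Its 2 probes gave 0.20 and 0.23, and its call ended without 2 h rat 1 (0.100), 2 h rat 2 (0.154) or 6 h rat 6 (0.0541), with each time fitted alone (0.0568), and on the flip arrays alone (0.061, adjusted p = 0.530). On the flip arrays alone Gpx1 was at 0.078 and did not pass (adjusted p = 0.623). Prdx2, the red cell peroxiredoxin, spread from -0.35 to 0.52 over the rats of 2 h and did not pass.

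Gata1, the zinc finger factor that drives red cell and platelet precursors, was above 0 on 12 of 12 arrays and had nearly the same mean at both times. The values by rat were 0.31, 0.44 and 0.34 at 2 h and 0.50, 0.39 and 0.15 at 6 h. The mean was 0.36 ± 0.07 and 0.35 ± 0.18, a difference of -0.016 (SE 0.09), and at 6 h it ranked highest of the 8 as deposited and in place 4 with the flip arrays multiplied by -1. Either orientation gave a like mean at both times, 0.50 and 0.45 on the fluor arrays, and 0.23 and 0.24 on the flip arrays.

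Of 4 other erythroid transcription factors and partners none passed limma's threshold at 2 h or at 6 h. Klf1, which activates beta globin genes, was the largest in size, at 0.20 ± 0.26 at 2 h (adjusted p = 0.150) and 0.16 ± 0.09 at 6 h (adjusted p = 0.246), with 5 of 6 rats above 0. It passed in 4 of 16 alternatives at 2 h (for example without 2 h rat 3, 0.34, adjusted p = 0.0262) and in 2 of 16 at 6 h. Gata2, the factor that Gata1 replaces as red cells mature, stood at -0.038 ± 0.089 at 2 h, and Bcl11a, a repressor of fetal globin, at -0.14 ± 0.11 (adjusted p = 0.0548). Of 6 genes of erythropoietin and stem cell factor signalling, Bcl2l1, the survival factor of late red cell precursors, rose at 2 h by 0.44 ± 0.11 (adjusted p = 0.00195; on the flip arrays alone 0.13, adjusted p = 0.183) and stood at 0.075 ± 0.094 at 6 h. Epor, the erythropoietin receptor, was at 0.043 ± 0.025 and 0.037 ± 0.071.

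Of 10 iron and heme turnover genes, 2 rose and 1 fell at 2 h, and 1 rose and 2 fell at 6 h. Shares over all 3939 genes were 9.34% up and 9.82% down at 2 h, and 8.30% up and 10.7% down at 6 h. Tf, the iron carrier transferrin, rose at 2 h by 1.44 ± 0.41 (limma adjusted p = 0.0012) and was at 0.28 ± 0.21 at 6 h. Its difference between the times was -1.17 (SE 0.20) and missed the threshold (limma adjusted p = 0.0594). With orientation as a term and rats as random blocks that difference passed (0.0162). Fth1, the heavy chain of ferritin, rose by 0.50 ± 0.11 (adjusted p = 0.0108) and 0.51 ± 0.25 (adjusted p = 0.00902), but on the flip arrays alone it stood at 0.12 and 0.069 and did not pass (0.486 and 0.642). Blvra, which reduces the heme breakdown product biliverdin, fell by 0.83 ± 0.17 at 2 h (adjusted p = 0.000573) and by 0.84 ± 0.09 at 6 h (adjusted p = 0.000314), below 0 on all 12 arrays. With the flip arrays multiplied by -1 it stood at 0.058 and 0.19. Slc40a1, the iron exporter ferroportin, fell at 6 h (-0.15 ± 0.05, adjusted p = 0.0258), a call that ended without any 1 of the 6 h rats (0.0684 to 0.130).

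None of 5 reticulocyte maturation genes passed limma's threshold at either time. Alox15, a lipoxygenase that attacks organelle membranes as reticulocytes mature, had the largest mean, 0.56 ± 0.27 at 2 h (adjusted p = 0.0795) and 0.41 ± 0.55 at 6 h (adjusted p = 0.167). It passed in 7 of 16 alternatives at 2 h, such as with orientation as a term and rats as random blocks (adjusted p = 0.0149) and without 6 h rat 4 (0.0383) or rat 6 (0.0335), and in 3 of 16 at 6 h. Its rat means were 0.28, 0.81 and 0.60 at 2 h and 0.44, 0.95 and -0.16 at 6 h. Bnip3l, the receptor for removal of mitochondria, stood at -0.060 ± 0.063 and -0.11 ± 0.05.

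**Figure D2:**
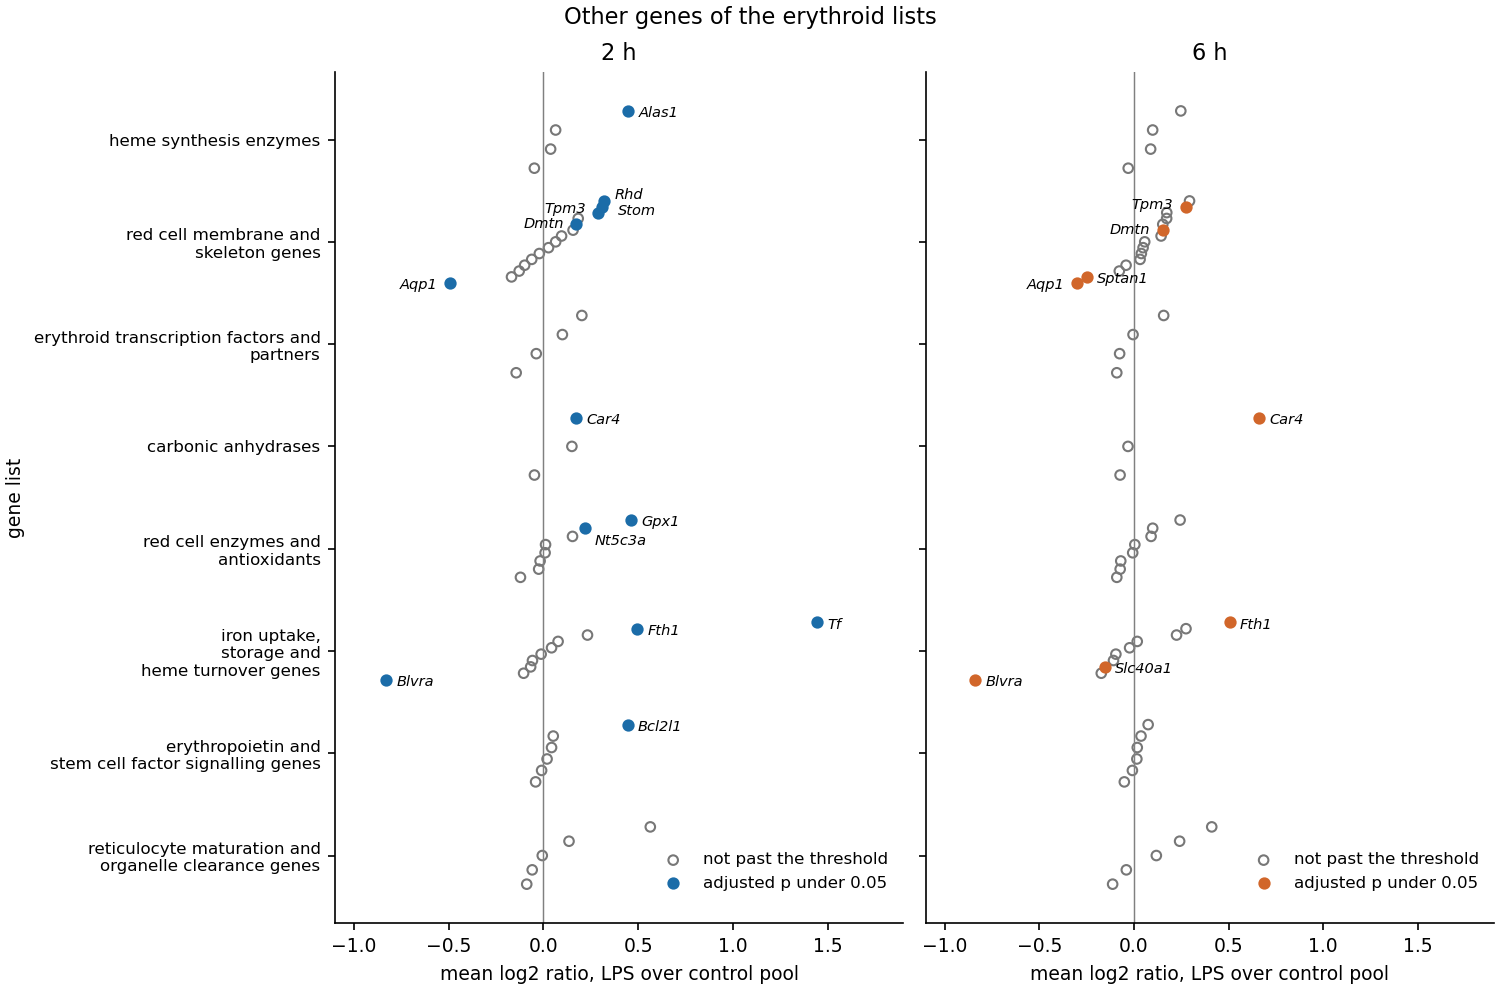
Mean log2 ratio (horizontal axis, 3 rats) of the 55 other genes, grouped by erythroid list (vertical axis), at 2 h (left) and 6 h (right). Filled points passed limma's adjusted p under 0.05 and open points did not. At 2 h 11 genes passed above 0 and 2 below, led by Tf at 1.44 and Blvra at -0.83, and at 6 h 4 passed on either side.

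Over the 8 lists together, 11 of 55 genes rose and 2 fell at 2 h, and 4 rose and 4 fell at 6 h. Among all 3939 genes 9.34% rose and 9.82% fell at 2 h, and 8.30% rose and 10.7% fell at 6 h. The median of the 55 was 0.038 at 2 h and 0.018 at 6 h, against -0.0070 and 0.0069 for all genes. Between the times 1 of 55 was higher at 6 h and 0 lower (limma, 9 of 55 at an unadjusted p under 0.05), where 0.330% of all genes were higher and 0.178% lower. The count of 13 at 2 h was 6 without 2 h rat 2, and the count of 8 at 6 h was 5 without 6 h rat 2 and 4 without 6 h rat 4. By the same threshold 5 of the 8 globin and erythroid genes were above 0 and 1 below at 2 h, and 1 above and 3 below at 6 h. Between the times 0 of 8 passed (2 at an unadjusted p under 0.05 in limma). Since they were picked on these ratios, nothing is read from those counts.

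Set in order at 2 h, the 8 genes ran from Slc4a1 through Car2, Alas2, Add2, Gata1, Hbb-b1 and Hbb to Hba-a1. Neighbours overlapped in their rats except at 2 places, between Gata1 and Hbb-b1 and between Hbb-b1 and Hbb. At 6 h the order was Gata1, Alas2, Car2, Add2, Slc4a1, Hba-a1, Hbb and Hbb-b1, and every pair of neighbours overlapped. With the flip arrays multiplied by -1, the order at 2 h was Car2, Slc4a1, Alas2, Gata1, Add2, Hbb, Hbb-b1 and Hba-a1, and at 6 h Car2, Alas2, Slc4a1, Gata1, Add2, Hbb, Hba-a1 and Hbb-b1. Slc4a1 went from place 1 to 5 as deposited and from 2 to 3 under that reading. Among all 3939 genes at 2 h, Car2 ranked 40, Alas2 63, Add2 108 and Gata1 122 from the top. At 6 h Gata1 ranked 90, Alas2 126, Car2 150, Add2 185 and Slc4a1 431, while Hbb-b1 ranked 3802.

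**Figure D3:**
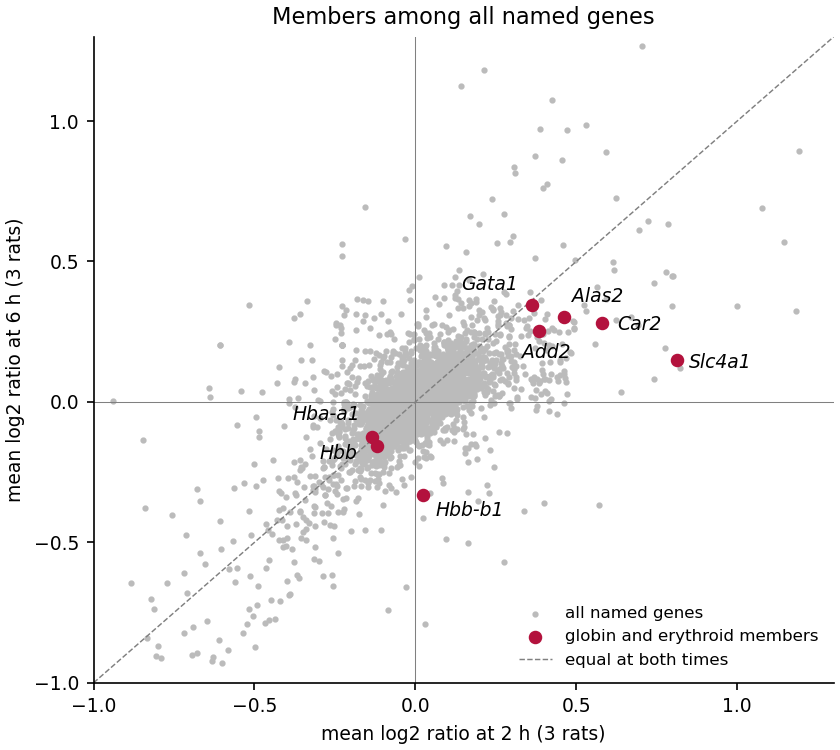
Mean log2 ratio at 6 h (vertical axis) against that at 2 h (horizontal axis), each over 3 rats, for all 3939 named genes in grey and the 8 globin and erythroid genes in red. The dashed line marks equal means, and 24 genes fall outside the plotted range of -1 to 1.3. Gata1 (0.36 and 0.35) lies next to the line, Slc4a1 (0.81 and 0.15) and Hbb-b1 (0.023 and -0.33) well below it.

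The same rats were high or low in several of the non-globin genes. At 2 h rat 2 was the highest of 3 in 4 of the 5 genes and rat 1 the lowest in 4 of the 5. At 6 h rat 4 was the highest in 4 of the 5 and rat 6 the lowest in 4 of the 5. At 2 h the median of the 5 was 0.31, 0.62 and 0.35 (rats 1, 2 and 3), and at 6 h it was 0.22, 0.47 and 0.054 (rats 2, 4 and 6). The 3 globins did not share this order: rat 2 at 2 h was highest in 1 and rat 4 at 6 h in 0 of them. The order was not particular to the 5 genes. Rat 2 at 2 h and rat 4 at 6 h were also highest in the cytotoxic marker Gzmc and the liver marker Fgb, but not in the neutrophil marker S100a9. These markers were picked after their values were seen. The share of all genes with this order was not counted, so nothing is read from these counts.

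The orientation of the array moved with most of these values. The fluor array was above the flip array of the same rat in 6 of 6 rats for Alas2, Slc4a1, Car2 and Gata1, and below it in 6 of 6 for Hba-a1 and Hbb-b1. Among all genes 20.0% were above and 19.2% below in all 6 rats. The median gap over rats was 0.57 for Alas2, 0.51 for Slc4a1, 0.64 for Car2 and 0.25 for Gata1, and -0.33 for Hba-a1 and -0.28 for Hbb-b1. Hbb and Add2 had gaps of -0.034 and 0.045. Multiplying the flip arrays by -1 is the other reading of their sign, under which Il1b, Il1r2, Irf1 and Zfp36 lie below 0 on every flip array. Means at 2 h then were 0.22 for Slc4a1, 0.28 for Car2, 0.18 for Alas2, 0.14 for Gata1 and 0.011 for Add2. For Hba-a1, Hbb-b1 and Hbb they were -0.21, -0.15 and -0.016. At 6 h, in the same order, the means were 0.28, 0.35, 0.32, 0.11 and 0.041, and -0.13, -0.14 and -0.024. Each of the 5 non-globin genes was above 0 and each globin below 0 under that reading. These signs only restate the mean gap between the orientations and are no second measure of the response. The differences of Hbb-b1 and Slc4a1 between the times were then 0.0068 and 0.059.

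**Figure D4:**
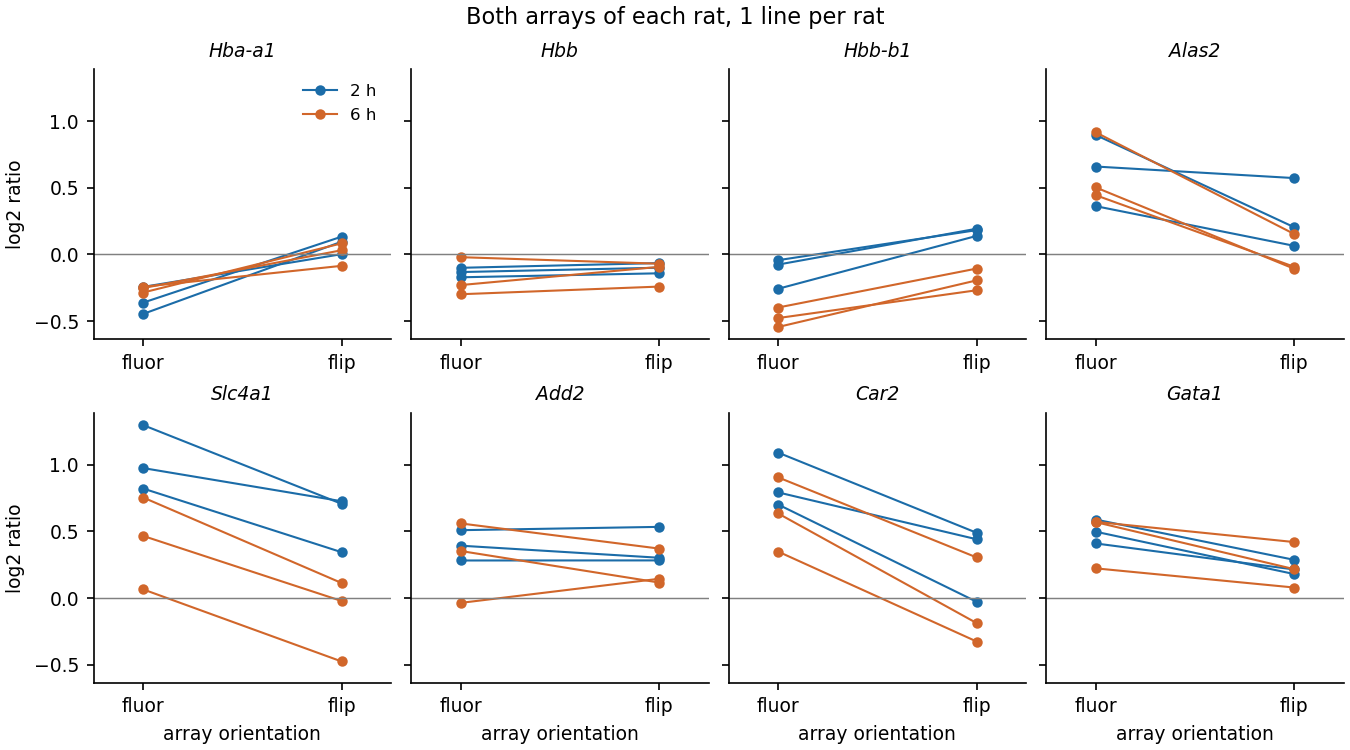
Log2 ratio (vertical axis) on the fluor and the flip array (horizontal axis) of each rat, 1 line per rat, blue at 2 h and orange at 6 h, for the 8 genes. Lines fall from fluor to flip in all 6 rats for Alas2, Slc4a1, Car2 and Gata1 and climb in all 6 for Hba-a1 and Hbb-b1. Those of Hbb and Add2 run in both directions, with median gaps of -0.034 and 0.045.

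On 6 of 6 arrays at 2 h, Alas2, Slc4a1, Add2 and Gata1 were above 0 and Hbb below it. At 6 h that held for Gata1 above 0 and for Hbb and Hbb-b1 below it. Of all genes 10.6% were above 0 on every array of 2 h and 11.5% below, and 10.2% and 12.6% at 6 h. None of the 8 probes held the repeated value that some probes of an array share.

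The genes most alike in pattern were picked by the highest Pearson correlation over the 12 arrays, out of 3931 other genes, and are given without a test, since arrays of a rat share RNA and all rats of a time share a pool. For Slc4a1 they were Sdhaf3, an assembly factor of succinate dehydrogenase (r = 0.98), Sult1b1, a sulfotransferase (0.97), and Emb, or embigin (0.96). These also had r of 0.97 to 0.99 over the 6 rat means, and Sdhaf3 stood at 0.82 ± 0.24 at 2 h and 0.12 ± 0.43 at 6 h, close to Slc4a1. For Alas2 they were Pard3 (0.98), Nefm (0.97) and Chchd10 (0.97), with r of 0.93 to 0.97 over rat means. For Hba-a1 they were Selenow (0.97), Dgkb (0.96) and Fads3 (0.96), whose r over rat means was 0.32, 0.70 and 0.73. A high r does not mean a like mean. At 2 h and 6 h Selenow stood at -0.23 ± 0.04 and -0.23 ± 0.03, but Dgkb at -0.36 ± 0.78 and 0.31 ± 0.21. Fads3 was at -0.015 ± 0.042 and -0.0060 ± 0.0594. Of those for Alas2, Pard3 was at 0.41 ± 0.21 and 0.25 ± 0.19 and Nefm at 0.30 ± 0.17 and 0.16 ± 0.14. Chchd10 was at 0.063 ± 0.110 and -0.024 ± 0.065.

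Markers of other blood cells moved over the same samples. Of 3 neutrophil markers measured 2 rose at both times, S100a9 (2.98 ± 0.53 at 2 h, limma adjusted p = 0.000432, and 2.70 ± 0.44 at 6 h, adjusted p = 0.000347) and Lcn2. With the flip arrays multiplied by -1, S100a9 stood at 0.14 (adjusted p = 0.281) and 0.24 (0.0629), and did not pass. S100a8, the partner of S100a9, stood at -0.083 ± 0.102 and -0.053 ± 0.073. Of 4 T cell markers 2 fell at either time, of 2 B cell markers 2 fell at 2 h and 1 at 6 h, and of 3 monocyte and macrophage markers 1 fell at 2 h and 2 at 6 h. Of 3 NK and cytotoxic markers 2 rose at either time. Of 2 platelet genes 1 rose at 2 h and none passed at 6 h. Pf4 had rat means of 0.57, 0.37 and 0.074 at 2 h and -0.79, -0.14 and -0.24 at 6 h and did not pass, and Gp9 rose at 2 h (0.18 ± 0.11, adjusted p = 0.0404). Of 9 liver markers 0 passed at 2 h and 1 rose at 6 h. Among all 3939 genes 9.34% rose and 9.82% fell at 2 h, and 8.30% rose and 10.7% fell at 6 h. Of these marker calls, only that of the cytotoxic marker Gzmc at 6 h also passed with the flip arrays multiplied by -1 (0.42, limma adjusted p = 0.0450). The median over a list's genes ranged over the rats from 0.43 to 1.06 for neutrophils, from -0.43 to -0.15 for T cells, from -0.43 to -0.23 for B cells, from -0.23 to -0.10 for monocytes and macrophages, from 0.21 to 0.55 for NK and cytotoxic cells, from 0.024 to 0.11 for liver, and from -0.42 to 0.38 for platelets. The part of these cell types in the values of the globin and erythroid genes was not tested.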

How the data were processed

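The authors deposited 1 log2 ratio per probe and array, 7200 probes on 12 arrays, with 0 missing values. The log2 base was read from the numbers: raised as powers of 2, 100% of those below a ratio of 5 fell on whole steps of 0.0001, within 0.05 of a step. The sources used here name no scanner, dyes, background correction or normalization, and the scale and centring used before deposit stay unknown. The number of arrays limits the precision.

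Probes were named from the platform annotation with identifiers in RefSeq's GRCr8 table (4184 of 4190 probes with 1 symbol; 46 had several and 2964 none), and probes of a gene were averaged, giving 3939 genes. The 2 arrays of a rat were averaged as 1 replicate. All 6 rats were fitted in limma 3.58.1 (lmFit and eBayes, R 4.3.3; 4 residual degrees of freedom), each time against 0 and 6 h minus 2 h. The Benjamini-Hochberg adjusted p over all genes had to be under 0.05. The fit was checked on simulated data. Samples are labelled only by rat number, so p-values measure the spread between these rats. The members and gene lists were chosen with earlier results of these data known. Named genes were the 8 members, and of each list at most 4 genes past the threshold at 2 h or 6 h, by size of mean, or the largest where none passed. Other list genes and the cell type markers named with values were chosen after their values were seen. Most alike patterns were named for Hba-a1, Slc4a1 and Alas2, 3 genes each. Alternatives were each rat left out, either orientation alone, flip arrays multiplied by -1, scaling, quantile normalization, orientation as a term with rats as random blocks, single probes, no probes at a repeated value, each time alone, and subtraction of the median of the 4 probes numbered on each side.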

Additional observations from a re-analysis of the deposited data

Results flagged for a closer look

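Car4 was the 1 named gene past the threshold for 6 h minus 2 h, at 0.49 (SE 0.06, limma adjusted p = 0.0244). It was higher in 3 of 3 rats of 6 h than in any rat of 2 h, as were 11.6% of all 3939 genes. The SE and p-value measure the spread between rats only. Each time had its own control pool, and a difference between the pools cannot be told apart from one between the times. Over the alternatives the adjusted p of Car4 ran from 0.0166 to 0.964, and with the flip arrays multiplied by -1 the difference was -0.015. Slc4a1 and Hbb-b1 differed the other way, by -0.66 and -0.35, as a description without a test.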

How the results depend on the processing

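No paired analysis was possible because the labels of the 2 times share a single rat number. Of the other genes of the lists, 13 passed at 2 h and 8 at 6 h. With orientation as a term and rats as random blocks 21 and 14 passed, and 5 between the times. Fluor arrays alone gave 24, 24 and 0 (limma, 10 at an unadjusted p under 0.05), and flip arrays alone 4 at 2 h, 11 at 6 h (3 of them among the 8) and 0 between the times (8 unadjusted). With the flip arrays multiplied by -1, 14 passed at 2 h, 27 at 6 h and 0 between the times (8 unadjusted), and 8 of the 13 at 2 h and 2 of the 8 at 6 h kept call and sign. Scaled arrays and quantile normalization gave 2 between the times each. Leaving out 1 rat gave 6 to 14 at 2 h, 4 to 11 at 6 h and 0 to 2 between the times (9 to 10 unadjusted). Signs turned in several values, among them these. Flip arrays alone put Hba-a1 at 0.077 at 2 h and 0.010 at 6 h and Car4 at -0.014 at 2 h, and at 6 h Alas2 at -0.015, Slc4a1 at -0.13, Car2 at -0.070, Dmtn at -0.054, Gpx1 at -0.28, Nt5c3a at -0.12 and Bcl2l1 at -0.27 (adjusted p = 0.0108). Fluor arrays alone put Hbb-b1 at -0.13 at 2 h. With the flip arrays multiplied by -1, Tpm3 was at -0.047 and Blvra at 0.058 at 2 h, and Aqp1 at 0.11 and Blvra at 0.19 (adjusted p = 0.0156) at 6 h. The differences between the times then were 0.0068 for Hbb-b1, 0.059 for Slc4a1, 0.069 for Car2, 0.14 for Alas2, 0.030 for Add2 and -0.015 for Car4. Of the 16 alternatives 7 cannot change a mean of the 8 globin and erythroid genes at 1 time. Among values that could change, those that moved by less than 1 SD were 50 of 72 for the 2 h means, 59 of 72 for the 6 h means and 87 of 96 for the differences. No intensities were at hand, so which spots lay above background or were saturated is unknown. The cause of these changes was not tested.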
